A study of Mus musculus with 4 samples.

Results

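The genes described here are 9 markers of lymphocytes: *Cd3e*, *Cd3g*, *Cd4*, *Cd8a* and *Cd2*, which are used as markers of T cells, *Cd79a*, *Cd79b* and *Ms4a1*, which are used as markers of B cells, and *Gzma*, a protease gene of cytotoxic lymphocytes. They were chosen by name, and all 9 were found on the array through the RefSeq accessions of its probes, with 12 probes among the 39429 probes of 32585 genes or identifiers. RNA had been extracted from spinal cord and duodenum of male mice lacking inositol hexakisphosphate kinase 2, in which an exon of *IP6K2* is deleted (*IP6K2*-/-, KO), and of WT littermates. The mice were 20 weeks old, were fed CE-2 and then, for 1 week, the purified diet iVid-neo, and were fasted for 48 h. The study's methods also describe flushing the vessels with cold saline ahead of dissection. The labels name no tissue to which the deletion is restricted. There was 1 array per genotype and tissue, 4 in all, and the labels do not say whether the spinal cord and the duodenum of a genotype came from the same mouse. Hence no difference given here has a replicate check, no test was made, and precision is limited by how few arrays there are.

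T cells recognize antigen through a receptor whose signal is carried into the cell by the CD3 chains, with CD4 or CD8 as a coreceptor that binds antigen-presenting molecules. In B cells the same task falls to CD79A and CD79B, which accompany the membrane immunoglobulin. The intestinal mucosa is rich in lymphocytes, with T cells lodged in the epithelium and B cells and plasma cells in the tissue beneath it, whereas the healthy spinal cord holds few of them.

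The unit is the processed signal of a probe, a background-subtracted intensity. On the log2 scale, each value was taken relative to the 75th percentile of its array, so that 0 is the level of a bright probe. This percentile was a signal of 905 for WT spinal cord, 971 for KO-labelled spinal cord, 68.0 for WT duodenum and 323 for KO-labelled duodenum, and the share of probes well above background was 76.7%, 77.3%, 51.6% and 66.3% in the same order. The WT duodenum array thus had the dimmest gene probes, and it limits what can be seen of weak genes. Its spiked-in controls were not dim, with a mean log2 signal of 10.99. That mean was 9.69 for WT spinal cord, 9.96 for KO-labelled spinal cord and 10.24 for KO-labelled duodenum. *Ip6k2* itself was read by 1 probe, with signals of 452 in WT spinal cord, 1320.3 in KO-labelled spinal cord, 139 in WT duodenum and 572 in KO-labelled duodenum. After scaling, the KO-labelled array minus the WT array gave 1.45 in the spinal cord and −0.21 in the duodenum, the latter turning to 0.058 under normexp background correction and to 2.79 when scaled on spiked-in controls. The spinal cord value goes against the label. The files do not place the probe inside or outside the deleted exon, so it may check nothing. Every array is therefore called by its label, as KO-labelled, and only the comparison of the WT tissues rests on no KO-labelled array, though an exchange of labels would reach it too.

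The labelled tissues carried their defining markers. All 10 genes on a list of duodenal epithelium markers were at least 2-fold higher on the WT duodenum array than on the WT spinal cord array. Of 11 genes on a list of spinal cord neuron and glia markers 10 were at least 2-fold lower. Only 4 of the 10 and 5 of the 11 were well above background on both arrays, and the rest could count in no other direction. *Cd3e*, a signalling chain of the T cell receptor complex, gave signals of 283 in WT spinal cord, 227 in KO-labelled spinal cord, 396 in WT duodenum and 1319 in KO-labelled duodenum, or −1.68, −2.10, 2.54 and 2.03 on the scaled log2 axis. *Cd3g*, whose product is another chain of that complex, gave signals of 3.78, 6.03, 52.1 and 329.6 on these arrays in the same order, or −7.90, −7.33, −0.38 and 0.030 after scaling. It was not well above background on either spinal cord array, so both of its spinal cord values are only upper limits. *Cd4*, the coreceptor of helper T cells, gave signals of 515, 470.5, 2071 and 6162, or −0.81, −1.05, 4.93 and 4.25. *Cd8a*, a chain of the coreceptor of cytotoxic T cells, gave signals of 4.50, 5.17, 16.1 and 181, or −7.65, −7.55, −2.08 and −0.83, and was not well above background in WT spinal cord. *Cd2*, an adhesion and costimulatory receptor of T cells and natural killer cells, gave signals of 18.2, 36.8, 18.4 and 89.8, or −5.64, −4.72, −1.88 and −1.85. On this scale all 5 genes were higher on both duodenum arrays than on either spinal cord array, an order that scaling on spiked-in controls turned for *Cd3e* and *Cd2* between the WT arrays.

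*Cd79a*, a signalling chain of the B cell receptor, gave signals of 9.15 in WT spinal cord, 19.7 in KO-labelled spinal cord, 16.1 in WT duodenum and 36.8 in KO-labelled duodenum, or −6.63, −5.62, −2.08 and −3.13 after scaling. *Cd79b*, its partner chain, gave signals of 118, 437, 147 and 617 in the same order, or −2.95, −1.15, 1.11 and 0.93. For both chains the order on this scale was WT duodenum, KO-labelled duodenum, KO-labelled spinal cord and WT spinal cord, from high to low. On spiked-in controls the WT duodenum array instead fell below the KO-labelled duodenum and WT spinal cord arrays for both chains, and plain normexp, that is with all local backgrounds kept, turned the 2 spinal cord arrays for *Cd79a*. *Ms4a1*, which encodes the B cell surface protein CD20, gave signals of 20.7, 102, 3.50 and 40.0, or −5.45, −3.25, −4.28 and −3.01, and was not well above background in WT duodenum. Unlike the chains of the receptor, it stood at nearly the same scaled level in KO-labelled spinal cord as in KO-labelled duodenum. *Gzma*, whose granzyme is stored in the granules of cytotoxic T cells and natural killer cells, gave signals of 12.4, 58.1, 1847 and 10766, or −6.19, −4.06, 4.76 and 5.06. It was high on both duodenum arrays and low on both spinal cord arrays.

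**Figure D1:**
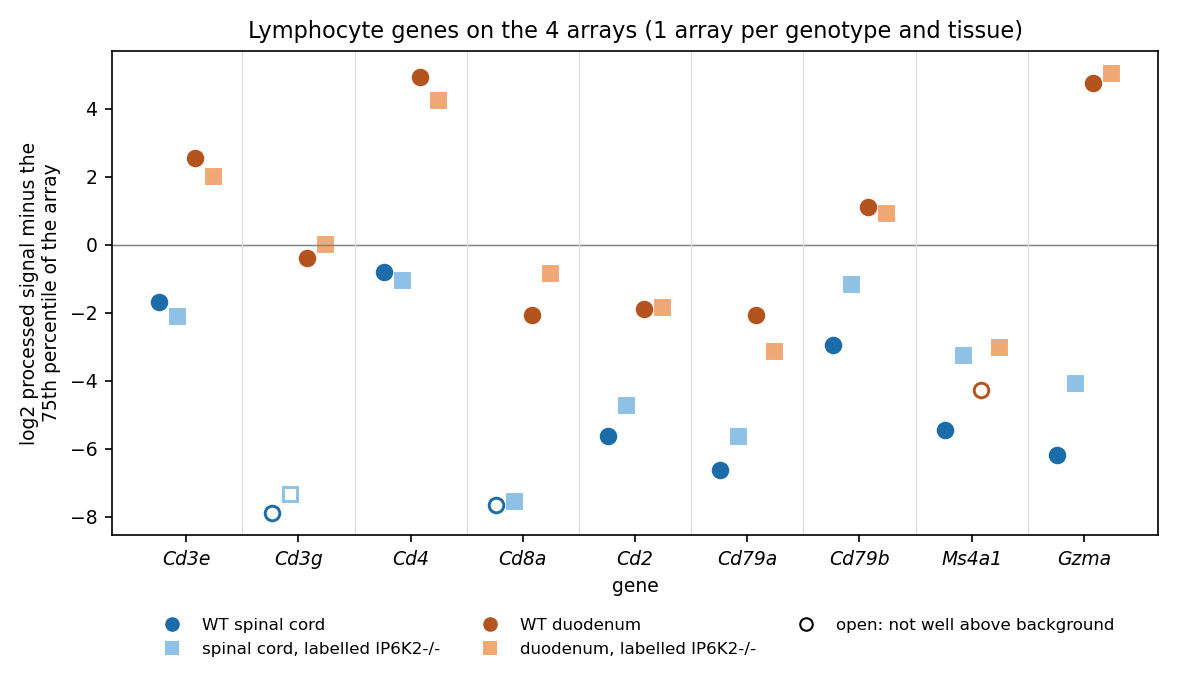
Scaled level of each lymphocyte gene on each array; the vertical axis is log2 of the processed signal minus the 75th percentile of the array, the horizontal axis lists the genes, circles are WT arrays, squares are arrays labelled *IP6K2*-/-, blue is spinal cord, orange is duodenum, and open symbols mark probes not well above background. *Cd4* reaches 4.93 in WT duodenum and *Gzma* 5.06 in KO-labelled duodenum, and *Ms4a1* lies at −3.25 in KO-labelled spinal cord and −3.01 in KO-labelled duodenum.

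Set against WT spinal cord, WT duodenum was at least 2-fold higher in 8 of the 9 lymphocyte genes and 2-fold lower in 0. Among 25223 genes 30.2% were higher by this measure and 23.1% were lower. Scaled on spiked-in controls, 2 of the 9 were higher, *Gzma* and *Cd3g*, and 2 were lower, *Cd2* and *Ms4a1*. *Ms4a1* was not well above background in WT duodenum, so it could count only as lower. For *Cd3g* and *Cd8a* the difference is a lower bound, and since they were well above background only in the duodenum they could count in no other direction. *Gzma* was 1987-fold higher and *Cd4* 53.5-fold, or 10.96 and 5.74 on the log2 scale. Under plain normexp these came to 5.43 and 4.48, and on spiked-in controls to 5.92 and 0.70, so *Cd4* then fell short of 2-fold. *Cd79a* was 23.5-fold, *Cd3e* 18.6-fold, *Cd79b* 16.6-fold and *Cd2* 13.5-fold higher, but on 8 spiked-in control probes they turned to −0.49, −0.82, −0.99 and −1.29 on the log2 scale. Scaling on these controls moved the median gene from 0.63 to −4.41, so these 4 genes still lay above it. Plain normexp put *Cd79a* at 0.90 and *Cd2* at 0.87, short of 2-fold. *Cd3g* was at least 155-fold and *Cd8a* at least 47.7-fold higher. These bounds fell to 1.32 and 0.84 on the log2 scale under plain normexp and to 2.24 and 0.54 on spiked-in controls. No fold can be given for *Ms4a1* on the scale used here. Relative to the median gene of the comparison, the log2 differences were 3.59 for *Cd3e*, 5.11 for *Cd4*, 3.12 for *Cd2*, 3.92 for *Cd79a*, 3.43 for *Cd79b* and 10.33 for *Gzma*.

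Between the KO-labelled arrays, 8 of the 9 genes were again at least 2-fold higher in the duodenum and 0 lower, beside 30.3% higher and 25.4% lower among 25727 genes; scaled on spiked-in controls, 6 were higher and 1 lower, with *Cd79a* at 0.63 and *Cd79b* at 0.22. *Gzma* was 557-fold higher, *Cd8a* 105-fold, *Cd4* 39.4-fold, *Cd3e* 17.5-fold and *Cd2* 7.34-fold, and *Cd3g* was at least 164-fold higher. *Cd79a* was 5.63-fold and *Cd79b* 4.25-fold higher, a narrower gap than between the WT arrays, though scaling on spiked-in controls turned this order for both and plain normexp for *Cd79a*. *Ms4a1* was 1.18-fold higher in the duodenum, and it turned to −0.057 relative to the median gene, which was higher there by 0.30, and to −1.62 on spiked-in controls, which put the median gene at −1.57.

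In the spinal cord, the 3 B cell genes and *Gzma* were higher on the KO-labelled array than on the WT array under every processing except plain normexp, under which *Cd79a*, *Ms4a1* and *Gzma* turned to −2.09, −1.13 and −1.58 and *Cd79b* stood at 0.30. The gap was 4.59-fold for *Ms4a1*, 4.38-fold for *Gzma*, 3.47-fold for *Cd79b* and 2.01-fold for *Cd79a*. On the log2 scale these are 2.20, 2.13, 1.79 and 1.00, with technical SDs of 0.12, 0.17, 0.076 and 0.22 that cover spots on an array and not mice. *Cd3e* and *Cd4*, by contrast, were lower on the KO-labelled array under every processing, by −0.42 and −0.23, with technical SDs of 0.068 and 0.061. *Cd2* came to 0.92, turning to −1.79 under plain normexp. *Cd8a*, of the spinal cord arrays detected on the KO-labelled one alone, was at least 1.07-fold higher, a log2 bound smaller than its technical SD, and *Cd3g* could not be compared. In all, 4 of the 8 genes well above background on 1 or both arrays were at least 2-fold higher and 0 lower, whereas 2.28% of 25222 genes were higher and 0.864% lower. In RNA from whole tissue, more cells of a type and more RNA per cell cannot be told apart.

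Plain normexp also moved the array as a whole, since 38.3% of all genes were then at least 2-fold lower on the KO-labelled array and the median gene stood at −0.45. With the local backgrounds that the scanner software had marked as outliers, 481 in WT spinal cord and 337 in KO-labelled spinal cord, replaced by the median of the array, the median gene was −0.050. The differences were then 0.94 for *Ms4a1*, 0.58 for *Gzma*, 1.41 for *Cd79b* and 0.16 for *Cd79a*, so only *Cd79b* passed 2-fold. Of these 4 genes *Cd79b* had the highest signal in WT spinal cord and *Cd79a* the lowest. The offset of 50 added under normexp shrinks differences between weak signals by construction. *Cd79a* lay at the threshold already, and was 0.80 under quantile normalization of the 4 arrays.

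Some of the other B cell genes were higher in the spinal cord along with *Cd79a*, *Cd79b* and *Ms4a1*, again except under plain normexp. Of 17 such genes well above background, 6 were at least 2-fold higher on the KO-labelled array and 0 lower, or 0 and 8 under plain normexp, with a median of 0.55 among the 15 measured on both arrays, when the median of all genes was −0.038. Their summed scaled signal, in units of the 75th percentile of the array, was 2.87 in WT spinal cord, 3.36 in KO-labelled spinal cord, 13.3 in WT duodenum and 11.1 in KO-labelled duodenum. *Spib*, a transcription factor of B cells, differed by 1.88 and *Fcmr*, the IgM Fc receptor, by 1.62, turning to −1.23 and −0.75 under plain normexp, and *Fcrla* differed by at least 3.12-fold. *Blnk*, the adaptor downstream of CD79A and CD79B and the gene of the list with the highest mean over the 4 arrays, differed by 0.59. *Ebf1*, a transcription factor of the B lineage, and *Cd22*, an inhibitory receptor of B cells, had the highest signals of the list in WT spinal cord and were lower on the KO-labelled array under every background correction and scaling, by −0.30 and −0.12.

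Of 15 other T cell receptor and signalling genes, listed beside *Cd3e* and *Cd4*, 0 were at least 2-fold higher and 0 lower in the spinal cord, with a median of 0.15, although plain normexp put 10 of the 15 lower. The nearest to the threshold was *Cd3d*, a further CD3 chain, with 0.87, followed by *Lcp2*, an adaptor of T cell receptor signalling, with 0.84 and *Cd5*, an inhibitory receptor, with 0.73, and these 3 turned to −1.88, −2.04 and −2.10 under plain normexp. *Thy1*, with the highest mean of this list over the 4 arrays, is also made by neurons and differed by −0.13, or by 0.30 under plain normexp. The summed signal of the list, which *Thy1* dominates, was 76.8 in WT spinal cord, 70.3 in KO-labelled spinal cord, 12.6 in WT duodenum and 11.1 in KO-labelled duodenum.

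Of 9 plasma cell genes 1 was at least 2-fold higher in KO-labelled spinal cord, *Jchain*, the joining chain of secreted IgA and IgM, at 1.11, which turned to −0.63 under plain normexp. *Pigr*, the carrier of secreted IgA, which epithelium makes and which had the highest mean of the list, differed by −0.16, or by 0.20 under plain normexp, but a second probe of it was not well above background on either spinal cord array, so the probes disagree on its presence there. Beside *Gzma*, 1 of 11 other cytotoxic granule and natural killer cell genes was at least 2-fold higher, *Klrd1*, by at least 2.63-fold, while plain normexp put 6 of the 11 lower. Of the 9 measured on both arrays 4 were above 0 and 5 below, with a median of −0.00032. *Ccl5*, with the highest mean of them over the 4 arrays, differed by 0.80, or by −0.82 under plain normexp, and *Nkg7*, with the highest signal in both spinal cord samples, by 0.28, or by −0.33 under plain normexp. A second probe of *Nkg7*, with signals of 14.8 in WT spinal cord and 52.0 in KO-labelled spinal cord, gave 1.71, so its probes disagree in size. *Gzmb* was not well above background on either spinal cord array. Among 7 markers of developing lymphocytes 1 was at least 2-fold higher, the B lineage gene *Vpreb3*, at 1.35, which plain normexp turned to −0.82. The recombinase gene *Rag1* was detected on the KO-labelled spinal cord array alone, with a signal of 7.20. A second probe of *Rag1* was not well above background on any of the 4 arrays, so its probes disagree on its presence there. *Rag2* and *Igll1*, also needed to make B cells, were not well above background on any of the 4 arrays. Of 14 gut homing and lymphoid organ genes 2 were at least 2-fold higher and 0 lower, while plain normexp put 8 lower, and *Ltb*, which encodes lymphotoxin beta, differed by 1.24.

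Several marker lists of other cells moved with *Cd79a*, *Cd79b*, *Ms4a1* and *Gzma* in the spinal cord, and their part in the result was not tested. Of 12 neutrophil and bone marrow granulocyte genes 8 were at least 2-fold higher on the KO-labelled array and 0 lower, or 7 and 2 under plain normexp. *Ctsg* stood at 1.76 and *Mpo* at 1.69, and the summed signal of the list was 60.2 in WT spinal cord, 116 in KO-labelled spinal cord, 2.19 in WT duodenum and 1.33 in KO-labelled duodenum, with *S100a9* the highest in mean over the 4 arrays. All 12 were well above background on both spinal cord arrays, and 7 of them on neither duodenum array. Of 10 red blood cell genes 7 were at least 2-fold higher and 0 lower, or 6 and 2 under plain normexp, with sums of 238, 367, 1537 and 89.2 in the same order and *Hba-a2* the highest in mean. Of 8 class II antigen presentation genes, which B cells share with dendritic cells and macrophages, 4 were at least 2-fold higher and 0 lower, or 1 and 3 under plain normexp, with sums of 1.57, 4.35, 315 and 269. Among these *H2-Ab1*, the highest in mean over the 4 arrays, was at 1.93 and *Cd74* at 1.83. All 6 skeletal muscle genes were at least 2-fold higher, *Acta1*, the highest in mean over the 4 arrays, by 4.48, with sums of 2.33, 40.4, 0.676 and 0.943. Of 5 adipose tissue genes 4 were at least 2-fold lower, *Ucp1* by −5.02.

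Over the pan-leukocyte list 2 of 12 genes passed 2-fold in the spinal cord, *Cd52* at 1.09 and *Rac2* at 1.06, and the sums were 8.52 in WT spinal cord, 13.0 in KO-labelled spinal cord, 37.1 in WT duodenum and 22.3 in KO-labelled duodenum. *Coro1a*, the highest in mean over the 4 arrays, lay at 0.38, and *Ptprc*, the leukocyte common antigen, at 0.92, turning to −1.32 under plain normexp. All 12 were above 0, although plain normexp put 1 at least 2-fold higher and 3 lower. Of 16 macrophage and dendritic cell genes 14 were above 0 and 1 passed 2-fold, *Lyz2* at 1.42, with the microglial genes *Tmem119* at 0.42 and *P2ry12* at 0.35, the last turning to −0.55 under plain normexp. *Itgam*, the highest of them in mean, was −0.12, or 0.26 under plain normexp and 0.17 as the mean of its probes, which disagree in direction. Of 11 spinal cord neuron and glia genes 0 passed 2-fold in either direction, under plain normexp too. The B cell genes and *Gzma* were thus higher on the array on which markers of granulocytes, red blood cells and skeletal muscle were higher too.

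**Figure D2:**
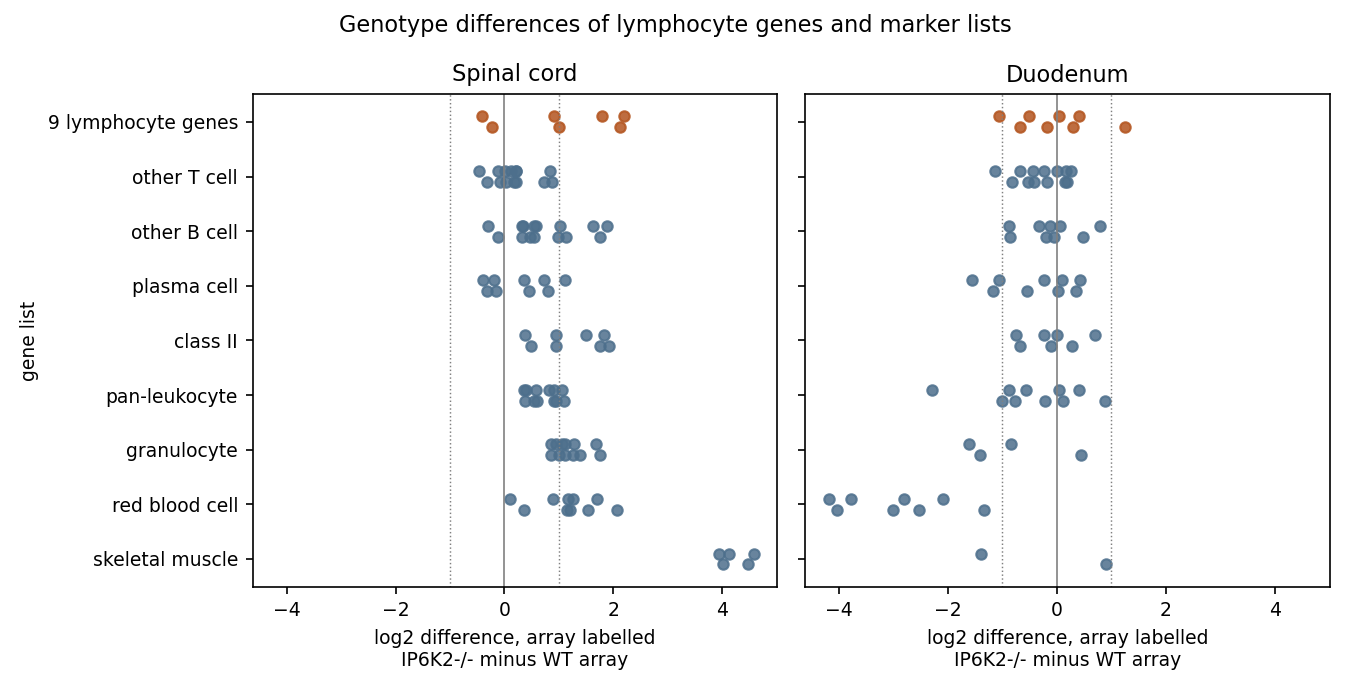
Difference of the array labelled *IP6K2*-/- from the WT array in each tissue, in log2 units on the horizontal axis, for the 9 lymphocyte genes (orange) and the marker lists named on the vertical axis (blue); each point is a gene well above background on both arrays, points are shifted vertically only to part them, and dotted lines mark 2-fold. *Ms4a1* lies at 2.20 in the spinal cord, or −1.13 under plain normexp, *Cd3e* at −0.42, and *Cd79a* in the duodenum at −1.06, or 1.95 on spiked-in controls.

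In the duodenum the lymphocyte genes differed by genotype in both directions on the scale used here. All 9 were well above background on 1 or both arrays, and 1 was at least 2-fold higher on the KO-labelled array and 1 lower, beside 7.20% higher and 11.9% lower among 21435 genes, so the count is about what the whole array shows. Scaled on spiked-in controls, which put the median gene at 2.89, all 9 were higher. *Cd8a* was higher by 1.24, with 0.079 under normexp. A second probe of *Cd8a*, with signals of 15.8 in WT duodenum and 56.9 in KO-labelled duodenum, gave −0.40, so its probes disagree in direction. *Cd79a* was lower by −1.06, or −0.94 relative to the median gene, which was lower by −0.11, and turned to 1.95 on spiked-in controls. *Cd4* was lower by −0.67 and *Cd3e* by −0.51, values that shrank to −0.31 and −0.33 with quantiles equalized over the 4 arrays and to −0.10 and −0.014 under normexp, and that turned to 2.33 and 2.49 on spiked-in controls. *Cd3g* differed by 0.41 and *Gzma* by 0.30, upward under every processing, although *Cd3g* fell to 0.035 under normexp. The technical SD of *Cd3g*, 0.094, holds for the processed signal and not for normexp. *Cd79b*, at −0.17, changed sign under normexp, with 0.061, and on spiked-in controls, with 2.83. *Cd2*, at 0.039, was within its technical SD of 0.14 and turned to −0.54 under normexp, and *Ms4a1* was at least 1.96-fold higher on the KO-labelled array. None of the 9 genes kept a 2-fold difference in 1 direction under every processing. However, normexp added an offset of 50, which by construction shrinks differences between weak signals, and the median signal in WT duodenum was 5.85. Scaling on spiked-in controls raised every difference by the same amount. Either setting could thus undo a call by itself.

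On the scale used here, the other T cell and B cell lists held fewer 2-fold differences between the duodenum arrays. Among all genes 7.20% were higher and 11.9% lower. Of 18 other T cell genes 1 was at least 2-fold lower, the costimulatory receptor *Cd28*, at −1.13, and of 16 other B cell genes 0 passed 2-fold in either direction. Their medians were −0.23 and −0.12, beside −0.11 for all genes, and on spiked-in controls all 18 and all 16 turned at least 2-fold higher. Next to *Cd79a*, 3 of 9 plasma cell genes were at least 2-fold lower on the KO-labelled array and 0 higher, while on spiked-in controls all 9 were higher and under normexp 1 was higher and 1 lower. *Jchain* lay at −1.55, *Tnfrsf17*, a survival receptor of plasma cells, at −1.16 and *Sdc1* at −1.05, and they turned to 1.45, 1.84 and 1.95 on spiked-in controls. Next to *Cd8a* and *Gzma*, 2 of 12 cytotoxic and natural killer cell genes were at least 2-fold higher, *Fasl* at 1.27, which turned to −0.53 under normexp, and *Gzmb* at 1.24. Over the whole of that list, these 2 included, 3 were above 0 and 6 below among the 9 measured on both arrays, with a median of −0.39, although on spiked-in controls all 12 were at least 2-fold higher. *Prf1*, which encodes perforin, was −0.71, or 2.29 on spiked-in controls. *Cd8b1*, the partner chain of *Cd8a*, was, of the duodenum arrays, detected on the KO-labelled one alone, at least 1.52-fold higher. All 8 red blood cell genes well above background in the duodenum were at least 2-fold lower on the KO-labelled array, or 1 higher and 2 lower on spiked-in controls, although the methods describe flushing blood from the vessels, and the part of blood in the lymphocyte values was not tested.

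The second probe of *Cd4* gave scaled values of −6.95 in WT spinal cord, −7.10 in KO-labelled spinal cord, −4.07 in WT duodenum and −4.74 in KO-labelled duodenum, and was not well above background in WT duodenum. Its genotype difference of −0.15 in the spinal cord had the sign of the first probe, but its gap between the KO-labelled tissues was 2.35, when the first probe gave 5.30. The second probe of *Cd2* gave signals of 1.72, 4.78, 1.37 and 11.6 and was well above background only in KO-labelled duodenum, at least 7.29-fold above KO-labelled spinal cord. That of *Cd8a* gave signals of 1.61 and 2.03 in the spinal cord, not well above background, and the duodenum was higher by at least 47.2-fold between the WT arrays and at least 39.8-fold between the KO-labelled arrays. Under the scaling used here, the tissue order was therefore the same on both probes wherever it could be read.

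Across the whole array, the profile of the 5 T cell genes over the 4 arrays was matched most closely by *Pex11g*, *Fblim1*, *Cda*, *Ctsw* and *Gpt*, among 12016 genes with a symbol that were well above background on all 4 arrays. The measure was the root mean square difference of values centred on each gene's own mean, with members set to the detection limit of an array where they lay below it, and it ran from 0.059 for *Pex11g* to 0.10 for *Gpt*. *Ctsw*, which encodes a cathepsin of cytotoxic lymphocytes, was the 1 of these 5 on any lymphocyte list, with scaled values of −4.89 in WT spinal cord, −4.53 in KO-labelled spinal cord, 0.39 in WT duodenum and 0.56 in KO-labelled duodenum. The profile of the 3 B cell genes, low in WT spinal cord and intermediate in KO-labelled spinal cord, was nearest to *Dcn*, *Esm1*, *Serping1*, *Mrc1* and *Pdzk1ip1*, from 0.18 to 0.21. *Dcn*, the gene of the matrix proteoglycan decorin, gave 1.22, 3.05, 4.35 and 4.23 on the arrays in the same order, and *Mrc1*, the mannose receptor of tissue macrophages, gave −4.38, −3.10, −1.33 and −1.63. The 4 points come from 2 tissues and share 1 scaling, so such likeness is a description.

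Bases upstream of the transcription start are shown for 1 gene of each group, the CD3 chain *Cd3g*, the B cell receptor chain *Cd79a* and the granzyme *Gzma*, since *Cd79a* and *Gzma* moved together in the spinal cord and *Cd3g* was not detected there. They come from the RefSeq promoter table of build GRCm38.p6, which held 5 of the 9 genes. Each line gives the 160 bases before the start, 5′ to 3′ on the strand of the gene. Capitals mark motif matches on either strand.
*Cd3g*, chr9:44980432-44980591, minus strand: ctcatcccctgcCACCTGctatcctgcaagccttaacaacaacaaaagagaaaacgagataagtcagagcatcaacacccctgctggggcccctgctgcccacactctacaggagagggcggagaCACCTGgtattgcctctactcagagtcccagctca
*Cd79a*, chr7:24897337-24897496, plus strand: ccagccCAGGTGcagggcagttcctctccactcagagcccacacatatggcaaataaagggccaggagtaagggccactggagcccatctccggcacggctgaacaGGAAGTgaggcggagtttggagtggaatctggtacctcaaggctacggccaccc
*Gzma*, chr13:113100982-113101141, minus strand: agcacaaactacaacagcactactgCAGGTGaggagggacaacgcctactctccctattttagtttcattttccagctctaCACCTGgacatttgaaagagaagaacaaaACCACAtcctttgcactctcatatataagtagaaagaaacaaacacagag
The motifs searched over the 250 bases before the start were CAGGTG, an E-box bound by E proteins, GGAAGT, a core of ETS factor sites, TGTGGT, a core of RUNX sites, CCCNNGGG, a core of EBF1 sites, and ATTTGCAT, the octamer, each on both strands. CAGGTG was found for *Cd3g*, *Cd79a* and *Gzma*, and in 17.2% of all 32851 promoters of the table. GGAAGT was found for *Cd79a* and *Cd3e*, and in 19.7% of all promoters, and TGTGGT for *Gzma*, and in 14.0%. CCCNNGGG, present in 11.8% of all promoters, and ATTTGCAT, present in 1.60%, were in none of the 5 windows. A match is a string of letters and was not tested as a binding site.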

How the data were processed

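Total RNA of spinal cord and duodenum was hybridized by the authors to 1-colour mouse arrays of 1 slide. The deposited scanner output, from Agilent Feature Extraction 11.5.1.1, gives each spot an intensity (processed signal) after background subtraction. A table of log2 values was deposited too. Rebuilt as log2 of the processed signal, with signals under 1 raised to 1 and quantiles equalized over the arrays, 38 values of the lymphocyte probes lay within 0.11 of the deposited log2 table. The medians of its columns were 5.12, 5.12, 5.11 and 5.12.

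Control spots and outlier spots (89 to 133 of 43020) were dropped, log2 signals were averaged per probe, and the array's 75th percentile was taken off. Of 26391 probes with an NM accession, 25862 were named through RefSeq (GRCm38.p6, for names only). A gene was read from the probe whose mean was highest. A gene was counted at 2-fold or more if well above background on 1 or both arrays. Where it was so on 1 array only, the bound was taken against the lowest scaled value well above background on the other array (−7.66, −7.82, −3.99 and −6.22 for WT spinal cord, KO-labelled spinal cord, WT duodenum and KO-labelled duodenum), or against its own value if higher. No spot was saturated. Technical SDs come from 399 probes, each with 10 spots per array, as the median of the 50 nearest in brightness. They were computed on the processed signal only, not under the alternatives.

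The genes and the 18 marker lists were chosen with earlier results of these data known. Genes named from a list are its highest in mean over the 4 arrays and, per tissue, up to 4 with the greatest genotype difference, but not every gene so selected is named. *Ebf1*, *Cd22*, *Nkg7*, *Rag2*, *Igll1* and *P2ry12* were chosen after their values were seen. No test was made. Alternatives were normexp (offset 50, limma 3.58.1 in R 4.3.3), plain or with marked local backgrounds replaced, quantile normalization over or within tissues, median and spiked-in control scaling, the deposited table, the mean over probes, differences relative to the median gene, a 1.5-fold threshold and other filters. Scripts used Python 3.11.15, numpy 2.4.6, pandas 2.3.3 and matplotlib 3.10.9 and were tested on simulated data.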

Additional observations from a re-analysis of the deposited data

Results flagged for a closer look

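For *Cd79a* and *Cd79b* the genotype difference had opposite signs in the tissues, each value being above its technical SD. For *Cd79a* the KO-labelled array minus the WT array was −1.06 for duodenum and 1.00 for spinal cord, so the tissues differed by −2.06. For *Cd79b* these values were −0.17, 1.79 and −1.97. With 1 array per group the difference between tissues was not tested. The sign of *Cd79b* in the duodenum turned under normexp, with 0.061, and both duodenum signs turned on spiked-in controls. The spinal cord value of *Cd79a* turned to −2.09 under plain normexp, when the duodenum value was −1.25, so both tissues then had the same sign. With marked local backgrounds replaced the spinal cord value of *Cd79a* was 0.16. Its technical SD of 0.22 holds for the processed signal and not for that value.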

How the results depend on the processing

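Over the alternatives, the sign of a single gene's difference changed in 8 of 96 values in the duodenum, 4 of 83 in the spinal cord, 4 of 78 between the WT tissues and 2 of 89 between the KO-labelled tissues. These totals include values that could not change, since the filters leave measured differences as they are, as does the mean over probes for genes with 1 probe. They are therefore no rate of stability. All 4 changes in the spinal cord arose under plain normexp. The cause was not tested for any change given here. In the spinal cord *Cd79b* kept its sign throughout. The count of 4 genes at least 2-fold higher and 0 lower became 0 higher and 4 lower under plain normexp. These 4 were *Cd79a* at −2.09, *Ms4a1* at −1.13, *Gzma* at −1.58 and *Cd2* at −1.79. With marked local backgrounds replaced 1 was higher. The count was 3 under either quantile normalization, median centring, spiked-in controls and the deposited table, where *Cd79a* lay between 0.80 and 0.99. It was 5 at 1.5-fold and with the mean of all probes, which put *Cd2* at 1.14.

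In the duodenum 1 gene was at least 2-fold higher. This count was 0 under either form of normexp and with the mean of all probes, 2 with quantiles equalized within each tissue, relative to the median gene, at 1.5-fold and with no filter on dim probes, and 9 on spiked-in controls. The 1 gene lower became 0 with quantiles equalized over the 4 arrays, in the deposited table, relative to the median gene and on spiked-in controls, where *Cd79a* was 1.95, and 2 at 1.5-fold.

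Between the WT tissues the 8 genes higher in the duodenum became 5 under plain normexp. On spiked-in controls 2 were higher and 2 lower. The 2 lower were *Cd2*, at −1.29, and *Ms4a1*, which was not well above background in WT duodenum. *Cd3e* at −0.82, *Cd79a* at −0.49 and *Cd79b* at −0.99 turned but fell short of 2-fold. Between the KO-labelled tissues 1 gene, *Ms4a1*, was at least 2-fold lower on spiked-in controls.

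No paired analysis was possible because the labels do not link the tissues to mice. Signal over background limits *Cd3g* and *Cd8a* in the spinal cord and *Ms4a1* in WT duodenum to bounds or to no value.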

Other observations

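The remaining marker lists are given beside the shares of all genes at least 2-fold apart between genotypes. In the duodenum 7.20% of all genes were higher on the KO-labelled array and 11.9% lower. The shares in the spinal cord were 2.28% and 0.864%. Of 11 intraepithelial lymphocyte genes in the duodenum, 2 were at least 2-fold higher on the KO-labelled array, *Cd38* at 1.41 and *Cd96* at 1.15, the latter −0.031 under normexp, and *Tmigd1* was lower at −1.49, or 1.51 on spiked-in controls. In the spinal cord, among 7 such genes, *Crtam* was lower at −1.36 and *Tmigd1* was higher by at least 1.58 on the log2 scale. Of 15 gut homing and lymphoid organ genes in the duodenum 1 was at least 2-fold lower, *Madcam1*, the vascular address for lymphocytes entering the gut, at −1.01, or 1.99 on spiked-in controls. *Ccr9*, a homing receptor of gut T cells, was 0.79 there. Of 10 innate lymphoid and helper cytokine genes in the duodenum 1 was at least 2-fold lower, *Areg* at −2.05, or 0.95 on spiked-in controls, and of 9 in the spinal cord 1 was, *Il5* at −1.06. Of 7 intestinal smooth muscle genes in the duodenum 2 were at least 2-fold lower, *Actg2* at −1.55 and *Des* at −1.42, and of 10 duodenal epithelium genes 1 was, *Fabp2* at −1.81, and these 3 turned to 1.45, 1.58 and 1.19 on spiked-in controls. In the spinal cord 2 of 7 smooth muscle genes were at least 2-fold higher on the KO-labelled array. These were *Des* at 3.44, or −0.31 under plain normexp, and *Smtn* at 1.30. The list as a whole had 4 genes above 0 and 3 below, with a median of 0.072. Of 5 epithelium genes well above background in the spinal cord 1 was at least 2-fold higher, *Cdh1*, by at least 2.99 on the log2 scale.

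Of 12 pan-leukocyte genes in the duodenum 2 were at least 2-fold lower on the KO-labelled array and 0 higher. *Laptm5* was −2.29, with −1.74 for its second probe, and 0.71 on spiked-in controls, and *Ptprcap* was −1.01. Among the 10 measured on both arrays 4 were above 0 and 6 below, with a median of −0.39.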
